A study of Mus musculus with 3 samples.

Results

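The 10 genes described here encode proteins of heart muscle: the myosin heavy chains Myh6 and Myh7, the light chains Myl7 and Myl4, cardiac actin (Actc1), the troponin subunits Tnnt2, Tnni3 and Tnnc1, the oxygen-binding protein myoglobin (Mb) and the atrial hormone precursor Nppa. They were taken by gene symbol, as every probe set with a single symbol among these names, which gave 14 of the 12422 probe sets and 10 of the 8251 genes on the array. The genes were chosen from earlier results that had shown their signals on these same 3 arrays, so their levels and differences are given as a description. Myl7, Myl4 and Nppa mark the atria, and they were set apart from the other 7.

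The samples were total RNA from frozen lungs of mice bearing B16 tumours (B16 is a mouse melanoma line), of mice bearing LLC tumours (LLC, Lewis lung carcinoma, is a line from a mouse lung tumour) and of normal mice, called the B16 lung, the LLC lung and the control lung below. Tumour cells had been injected under the skin of the back, and the series presents these as lungs at the stage before a remote tumour has seeded them. Each group had 1 array on an Affymetrix mouse platform, so there were no replicates, no p-value could be given and each difference is one between arrays, not between conditions. The labels give neither strain, age nor sex, nor the time after injection, nor how many animals each RNA came from, nor how the lung was cut from the heart and great vessels.

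The sarcomere is the contractile unit of striated muscle, in which myosin of the thick filament pulls on actin of the thin filament, and calcium starts the pull by binding to the troponin complex. Cardiac muscle uses its own set of these proteins, and atrial and ventricular muscle differ in their myosin light chains. In mice the larger pulmonary veins carry a sleeve of atrial-type heart muscle into the lung, so lung tissue can hold heart muscle RNA. In a bulk sample, fewer cells of a type and less RNA per cell cannot be told apart.

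Lung markers fitted the tissue label. Of 7 lung epithelium markers on the array 7 were above the floor in each lung, as were 10 of 10 endothelial markers; the floor was a scaled signal of 23.6, under which values were not read. Sftpc, the surfactant protein of type 2 alveolar cells, had signals of 7482, 7296 and 6206 in the B16, LLC and control lung. The LLC lung stood apart in its hepatocyte markers, with 12 of 13 above the floor and a summed signal of 5439, against 4 of 13 and 391 in the B16 lung and 4 of 13 and 482 in the control lung. The ratio of 3' to 5' signal, a sign of RNA integrity, was for beta-actin 1.56, 1.47 and 1.44 in the B16, LLC and control lung, and for Gapdh 1.2, 1.001 and 0.957. Its part in the differences below was not tested.

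All 10 genes were below the control lung in both tumour-bearing lungs, and 8 of them at least 2-fold in each. The 8 were Myl7, Myl4, Myh6, Myh7, Tnnt2, Tnni3, Tnnc1 and Mb, and the smaller differences were those of Nppa and Actc1. Over all measured genes 4.73% were at least 2-fold lower in the B16 lung and 2.98% in the LLC lung, and 1.32% were so in both; by any amount, 50.6% were lower in the B16 lung, 50.1% in the LLC lung and 33.8% in both. Since the members were chosen with these values known, nothing follows from the gap between their shares and that background. The 2 comparisons rest on 1 shared control array, so they are not independent of each other. The median log2 difference of the 10 was −1.23 in the B16 lung and −1.61 in the LLC lung, beside −0.01 and 0.00 over all measured genes. Part of these sizes rests on signals near the floor: with the floor at the 60th percentile in place of the 40th, 5 genes (Myl7, Myl4, Myh6, Tnnt2 and Tnnc1) were at least 2-fold lower in each lung, and with a floor of 100, 3 (Myl7, Myl4 and Myh6).

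**Figure D1:**
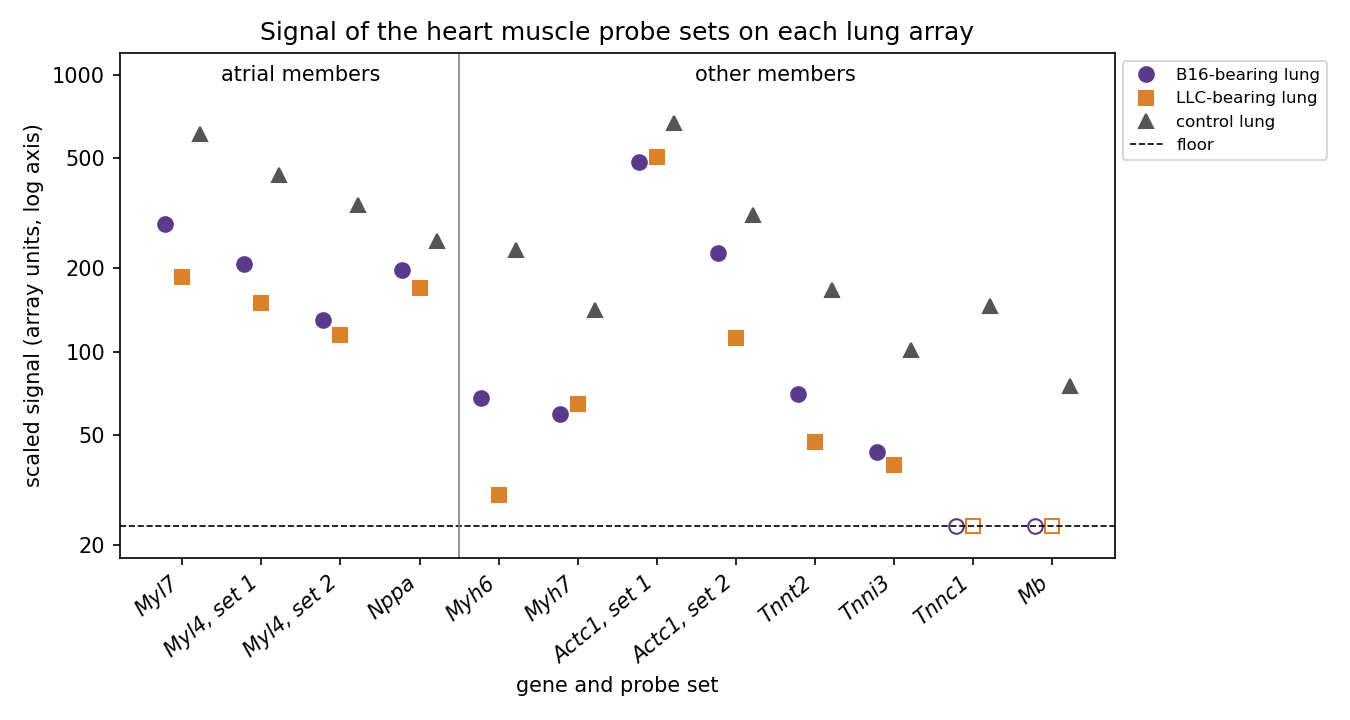
Scaled signal on a log axis of the 12 probe sets above the floor on the control array, for the B16, LLC and control lung (1 array each, no error bars). The control lung (triangles) is highest on each probe set; open symbols on the dashed line were below the floor of 23.6, and set 1 and set 2 are the brighter and the dimmer probe set of a gene.

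Among the atrial genes, the 2 light chains had the larger differences. Myl7, the regulatory light chain of atrial myosin, had signals of 288 and 187 in the B16 and LLC lung, against 611 in the control lung. It was 2.12-fold and 3.27-fold lower (log2 differences of −1.08 and −1.71). Myl4, the essential light chain of atrial myosin, is read by 2 probe sets. The brighter had 207 and 150.1 in the B16 and LLC lung, against 436.5 in the control lung, and was 2.11-fold and 2.91-fold lower. The other had 130.3 and 115, against 340 in the control lung, and was 2.61-fold and 2.95-fold lower. The probe sets of Myl4 thus gave the same order of the 3 lungs, and their log2 differences were −1.07 and −1.38 in the B16 lung and −1.54 and −1.56 in the LLC lung.

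Nppa, the precursor of atrial natriuretic peptide, a hormone that atrial muscle cells secrete when stretched, had the smallest difference of the atrial genes. Its signals were 198 and 171 in the B16 and LLC lung, against 251 in the control lung, or 1.27-fold and 1.47-fold lower (−0.34 and −0.56). For probe sets with a mean signal from 200 to 400 the robust SD of the log2 difference from control (the median absolute deviation over all such probe sets, scaled to an SD) was 0.35 in the B16 lung and 0.27 in the LLC lung, so the Nppa difference lay within that spread in the B16 lung and at about 2 such SDs in the LLC lung. That comparison describes size only, since Nppa was chosen with these values known. Relative to Myl7 on the same arrays, the Nppa difference was smaller by 0.74 and 1.16 on the log2 scale.

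The promoters of Myl7 and Nppa are shown as the atrial genes with a larger and a smaller difference. They run from before the RefSeq start site to shortly after it (GRCm38.p6), and capitals mark TATAAA on the strand shown, the M-CAT letters CATTCC, the GATA letters AGATAA (each M-CAT and GATA word on both strands) and the CArG and MEF2 words by name.
Myl7, chr11:5898733-5899032, minus strand: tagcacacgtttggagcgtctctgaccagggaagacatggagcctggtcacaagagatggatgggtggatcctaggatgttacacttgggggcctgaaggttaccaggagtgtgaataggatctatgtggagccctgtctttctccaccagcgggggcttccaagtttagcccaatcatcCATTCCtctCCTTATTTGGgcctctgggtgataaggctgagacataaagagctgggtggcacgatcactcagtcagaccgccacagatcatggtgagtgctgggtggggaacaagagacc
Nppa, chr4:148000472-148000771, plus strand: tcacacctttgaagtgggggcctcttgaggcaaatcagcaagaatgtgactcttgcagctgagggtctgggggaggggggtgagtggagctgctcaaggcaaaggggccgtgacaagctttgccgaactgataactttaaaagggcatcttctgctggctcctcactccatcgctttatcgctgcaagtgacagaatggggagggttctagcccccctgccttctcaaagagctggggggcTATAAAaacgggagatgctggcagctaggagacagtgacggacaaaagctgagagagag
The Myl7 window holds an M-CAT word at positions −70 to −65 and a CArG word, the binding letters of serum response factor, at −61 to −52, counted from the start site. The Nppa window holds only a TATA word among those searched, at −9 to −4, and the Myl4 window none.

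Of the myosin heavy chains, Myh6 had the larger difference. Myh6, the fast alpha heavy chain of atria and of the adult mouse ventricle, had signals of 67.9 and 30.4 in the B16 and LLC lung, against 233 in the control lung. It was 3.43-fold and 7.65-fold lower (−1.78 and −2.94), or −0.69 and −1.23 on the log2 scale relative to Myl7. Its LLC signal lay just above the floor, and with the floor at the 60th percentile or at 100 its log2 difference was −1.71 or −1.22 in both lungs. Myh7, the slow beta heavy chain of the fetal heart and of slow skeletal fibres, had 59.8 and 64.8 in the B16 and LLC lung, against 142 in the control lung, or 2.38-fold and 2.19-fold lower. The suffix of its probe set marks probes shared within a gene family, so other myosin heavy chains could add to it, and the second Myh7 probe set was below the floor in all 3 lungs. The mean of both Myh7 probe sets was below the floor in each tumour-bearing lung. Its log2 difference of −0.89 in each is therefore a bound, and the difference could be larger.

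The Myh6 promoter is shown because its gene had the largest difference measured above the floor among the members.
Myh6, chr14:54966558-54966857, minus strand: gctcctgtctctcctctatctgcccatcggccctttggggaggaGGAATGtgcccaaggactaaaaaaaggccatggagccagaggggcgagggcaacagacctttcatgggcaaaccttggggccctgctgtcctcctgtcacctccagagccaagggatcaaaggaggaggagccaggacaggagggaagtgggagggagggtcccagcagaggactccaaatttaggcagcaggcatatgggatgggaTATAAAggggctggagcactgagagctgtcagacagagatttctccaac
It holds an M-CAT word, here as GGAATG, at −206 to −201 and a TATA word at 2 to 7, just after the RefSeq start site.

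In the thin filament, the troponin subunits were lower throughout. Tnnt2, the subunit that ties troponin to tropomyosin, had signals of 70.6 and 47.1 in the B16 and LLC lung, against 167 in the control lung, or 2.37-fold and 3.55-fold lower (−1.24 and −1.83). Tnni3, the inhibitory subunit particular to the heart, had 43.5 and 38.9, against 102 in the control lung, or 2.33-fold and 2.61-fold lower (−1.22 and −1.38). Tnnc1, the calcium-binding subunit of heart and slow skeletal muscle, had 147 in the control lung and was below the floor in both tumour-bearing lungs, so it was at least 6.22-fold lower in each. The robust SD of the log2 difference from control was 0.54 in the B16 lung and 0.45 in the LLC lung for probe sets with a mean signal from 50 to 100, which holds Tnnt2, Tnni3 and Tnnc1. Each of the 3 lay at more than 2 such SDs below the control lung, Tnnc1 by its bound. That describes size only, since these genes were chosen with their values known.

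Cardiac actin gave a split picture. The brighter probe set of Actc1, which carries the suffix for probes shared within a family, had 485 and 505 in the B16 and LLC lung, against 670.2 in the control lung, or 1.38-fold and 1.33-fold lower. The other probe set, whose suffix also marks relaxed design rules, had 227 and 112, against 312 in the control lung, or 1.38-fold and 2.79-fold lower (−0.46 and −1.48). The probe sets agreed in the B16 lung and parted in the LLC lung. Acta2, the smooth muscle actin, whose sequence is close to that of Actc1, had signals of 445, 223 and 402 in the B16, LLC and control lung; its part in the Actc1 signals was not tested.

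Mb, the oxygen store of heart and slow muscle, had a signal of 75.3 in the control lung and lay below the floor in both tumour-bearing lungs, at least 3.19-fold lower in each. A second Mb probe set was below the floor in all 3 lungs. The mean of both was also below the floor in each tumour-bearing lung. Its log2 difference of −0.56 in each is thus a bound, and the difference could be larger. Neither Tnnc1 nor Mb could have been higher, since only the control array read them above the floor.

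The promoters of Tnnc1 and Actc1 are shown as those of the thin filament genes with the largest bound and the smallest difference.
Tnnc1, chr14:31208062-31208361, plus strand: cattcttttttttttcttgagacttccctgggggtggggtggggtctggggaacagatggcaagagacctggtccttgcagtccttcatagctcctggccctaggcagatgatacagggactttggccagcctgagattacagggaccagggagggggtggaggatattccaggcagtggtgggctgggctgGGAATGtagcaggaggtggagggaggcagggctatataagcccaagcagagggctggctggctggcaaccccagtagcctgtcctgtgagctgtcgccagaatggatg
Actc1, chr2:114052826-114053125, minus strand: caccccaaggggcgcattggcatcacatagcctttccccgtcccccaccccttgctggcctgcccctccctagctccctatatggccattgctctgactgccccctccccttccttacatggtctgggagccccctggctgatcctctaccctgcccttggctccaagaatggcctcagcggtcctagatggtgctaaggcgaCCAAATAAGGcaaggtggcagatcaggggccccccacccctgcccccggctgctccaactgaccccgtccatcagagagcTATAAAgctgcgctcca
Tnnc1 has an M-CAT word at −58 to −53. Actc1 has a CArG word at −47 to −38 and a TATA word at 34 to 39. Over the 10 genes, 5 had an M-CAT word in at least 1 of their windows, 2 a CArG word, 3 a TATA word, 1 (Tnnt2) a GATA word and 0 a MEF2 word. Of all 32851 mouse promoter windows of this length, 14.7% hold an M-CAT, 1.63% a CArG, 8.32% a TATA, 11.2% a GATA and 3.19% a MEF2 word. The 10 genes have 14 windows in all, since Myh7, Tnnt2 and Mb have more than 1 start site, and a match is only a run of letters.

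The ranges of the atrial genes and of the other genes overlapped in both tumour-bearing lungs. In the B16 lung the median log2 difference was −1.07 for the 3 atrial genes (−1.08 to −0.34) and −1.25 for the other 7 (−2.64 to −0.47). In the LLC lung it was −1.54 for the atrial genes (−1.71 to −0.56) and −1.67 for the others (−2.94 to −0.41). The LLC median of the others is the bound of Mb, which the floor sets, and was −1.83 with the floor at the 20th percentile and −0.995 with the floor at the 60th. Nppa set the upper end of the atrial range, and 6 of the other 7 genes lay below all 3 atrial genes in the B16 lung and 3 of 7 in the LLC lung. The B16 count includes Tnnc1 and Mb by their bounds and rests on the brighter Myl4 probe set. The dimmer Myl4 probe set had −1.38 there, below Myh7 (−1.25), Tnnt2 (−1.24) and Tnni3 (−1.22). The LLC count includes Tnnc1 by its bound and leaves out Mb, whose bound of −1.67 lay just above Myl7 (−1.71). With the floor at the 20th percentile Mb had −4.33 in the LLC lung.

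**Figure D2:**
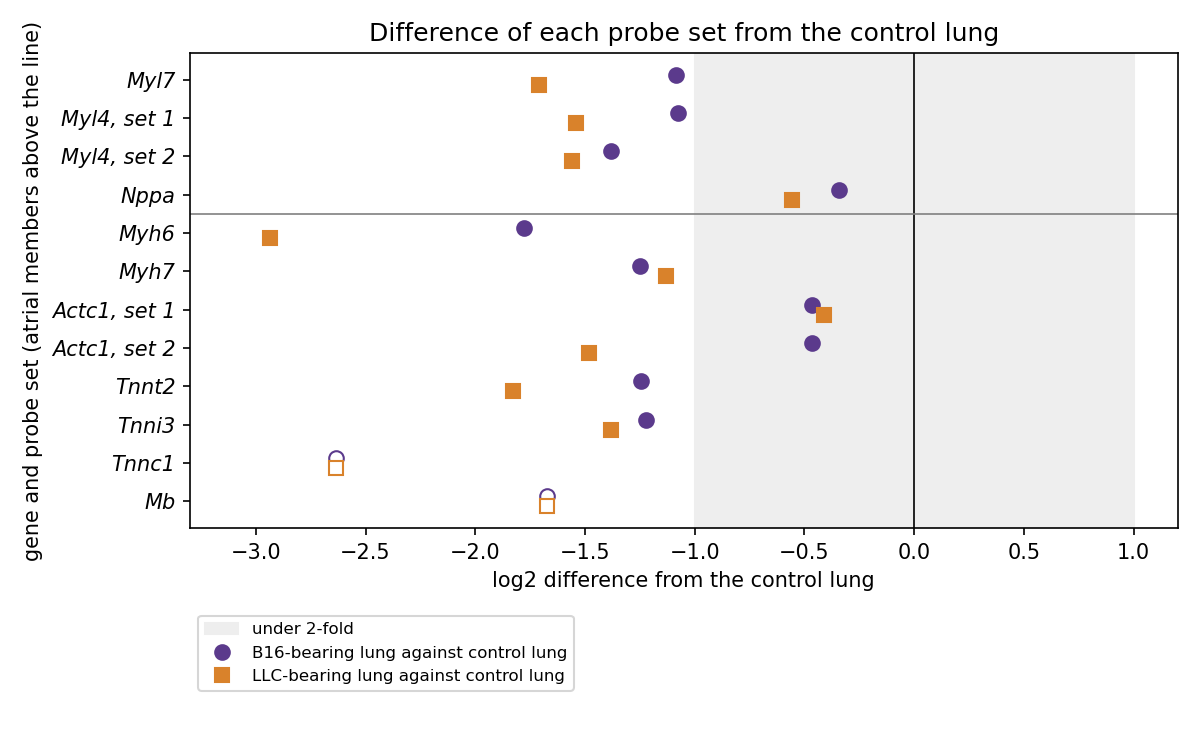
Log2 difference from the control lung of each probe set in the B16 (circles) and the LLC lung (squares), with atrial genes above the line; open symbols are bounds and the grey band holds differences under 2-fold. Each of the 12 probe sets lies left of 0 in both lungs, with Nppa and the brighter Actc1 probe set inside the band in both and the dimmer Actc1 probe set inside it in the B16 lung.

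Between the tumour-bearing lungs the members differed less. Of the 8 genes measured in this comparison 6 were higher in the B16 lung and 2, Myh7 and Actc1, were lower on their brighter probe sets, beside 47.7% of all measured genes higher and 52.3% lower. Of the 8, Myh6 alone reached 2-fold, with 67.9 in the B16 lung against 30.4 in the LLC lung (2.23-fold, log2 difference 1.16), beside 3.41% of all measured genes at least 2-fold higher and 4.93% lower. With the floor at the 60th percentile or at 100, Myh6 was below it in both lungs. The dimmer probe set of Actc1 also reached 2-fold, with 227 in the B16 lung against 112 in the LLC lung (2.02-fold). The atrial genes were 1.54-fold (Myl7), 1.38-fold (Myl4, brighter probe set, and 1.13-fold on the other) and 1.16-fold (Nppa) higher in the B16 lung. Their differences of 0.63, 0.47 and 0.21 on the log2 scale compare with robust SDs of 0.32 for probe sets with a mean signal from 200 to 400. For 6 genes, Myl7, Myl4, Nppa, Myh6, Tnnt2 and Tnni3, the order of signals was thus LLC lowest, then B16, then control. The Nppa difference between the tumour-bearing lungs lay within this spread. That of Tnni3 (0.16) lay within the robust SD of 0.51 for mean signals from 50 to 100. The dimmer Myl4 probe set (0.18) lay within that of 0.40 for mean signals from 100 to 200.

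Genes of the ventricle and of skeletal muscle were sought as well. Myl2 and Myl3, the ventricular and slow skeletal counterparts of Myl7 and Myl4, were below the floor in all 3 lungs, as was the potassium channel gene Kcnd2, so 0 of 3 further ventricular genes on the array could be measured. Of 16 fast skeletal muscle genes on the array 9 were above the floor in at least 1 lung, and Myh1, Myh2, Myh4, Acta1, Tnnt3, Tnni2 and Ryr1 were below it in all 3. The fast skeletal genes that could be measured had medians of −0.03 and 0.04 in the B16 and LLC lung. Myl1, a fast light chain, was at least 2.55-fold lower in both, and Atp2a1, the calcium pump of fast muscle, had 46.5 and 43.7, against 94.1 in the control lung. Actn3, an actinin of fast fibres, had 52.6 and 44.7, against 30 in the control lung. Its probe set carries the suffix for probes shared within a family. The second probe sets of Actn3 and of Atp2a1 were below the floor in all 3 lungs. Pvalb, a calcium buffer of fast fibres, had 242 in the B16 lung and 276 in the control lung and was below the floor in the LLC lung. That probe set carries a suffix for relaxed design rules, and a second Pvalb probe set was below the floor in all 3 lungs.

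Of the slow skeletal genes 4 of 6 were measured. Tnni1, the slow troponin I, had 25.6 and 47.2 in the B16 and LLC lung, against 113 in the control lung. Tpm3, a tropomyosin found in many cells, had 427 and 406, against 362 in the control lung, and Tnnt1, the slow troponin T, had 36 and 45.4, against 38.4. A second Tnnt1 probe set was above the floor in the control lung alone, at 25.7. The list shares Myh7 with the members, and its medians were −0.67 and −0.48.

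Of the further atrial genes measured, 1 of 4 in the B16 lung (Pam, by a bound) and 0 of 4 in the LLC lung were at least 2-fold lower than in the control lung. Over all measured genes these shares were 4.73% and 2.98%. Of 10 further atrial genes on the array 4 were above the floor in any lung, and Sln, the atrial regulator of the calcium pump, Kcna5, Kcnj3, Kcnj5, Nppb and Fgf12 were below it in all 3. Pam, the enzyme that amidates peptides, was below the floor in the B16 lung and had 71.1 in the LLC lung, against 129 in the control lung, so it was at least 5.47-fold lower in the B16 lung. Dkk3 had 44.6 and 70.4, against 82.9, Bmp10, a growth factor of the atria, 33.4 and 51.4, against 49.8, and Gja5, a connexin of atria and arteries, 56.6 and 70.4, against 51.1 in the control lung. The medians were −0.74 in the B16 lung and −0.10 in the LLC lung. In these lungs 3 of 4 and 2 of 4 genes were lower, beside 50.6% and 50.1% of all measured genes.

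Further sarcomere genes had medians near 0 (0.11 and −0.06), with 4 of 9 and 5 of 9 measured genes lower in the B16 and LLC lung, beside the 50.6% and 50.1% of all measured genes that were lower. Ankrd1, a muscle ankyrin repeat protein induced by strain, had 99.1 and 95.9, against 247 in the control lung, or 2.49-fold and 2.58-fold lower. Ldb3, a protein of the Z disc, was above the floor in the control lung alone, at 36. Cryab, a small heat shock protein, had 185 and 256, against 293 in the control lung, while Des, the intermediate filament desmin, had 192 and 131, against 111. The Cryab probe set carries the suffix for probes shared within a family, and a second was below the floor in all 3 lungs. Actn2, Csrp3, Myom1 and Myom2 were below the floor in all 3 lungs.

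For calcium handling, 3 of 7 measured genes were lower in each tumour-bearing lung, with medians of 0.26 and 0.03. Over all measured genes 50.6% were lower in the B16 lung and 50.1% in the LLC lung. Atp2a2, the calcium pump of heart and slow muscle, was at least 4.61-fold lower in each tumour-bearing lung than its control signal of 109. Hrc, a calcium-binding protein of the sarcoplasmic reticulum, had 68.1 and 42.5, against 81.5, while Cacna1c, the L-type calcium channel, had 130 and 182, against 109, and Fkbp1b, a partner of the ryanodine receptor, had 121 and 151, against 101 in the control lung. Ryr2 and Cacna1s were below the floor in all 3 lungs.

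Among muscle energy genes 10 of 13 and 9 of 13 were lower in the B16 and LLC lung, beside 50.6% and 50.1% of all measured genes, with medians of −0.36 and −0.17. Fabp3, the fatty acid carrier of heart, had 25.4 and 28.6, against 65.6 in the control lung, or 2.59-fold and 2.29-fold lower. Cox6a2, the muscle form of a cytochrome oxidase subunit, had 42.1 and 108, against 133, and Ckmt2, the mitochondrial creatine kinase of striated muscle, was at least 1.78-fold lower in both. Ucp3, an uncoupling protein of muscle and brown fat, ran the other way with 67.9 and 53.8, against 25.3. The muscle creatine kinase Ckm was below the floor in all 3 lungs, as were Cox7a1, Cox8a and Pgam2.

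Transcription factors of the heart list, several of which lung cells also make, had medians of −0.02 and −0.09. In the B16 and LLC lung 3 of 6 and 4 of 6 were lower, beside 50.6% and 50.1% of all measured genes. Gata4 was below the floor in the B16 lung and had 29.3 in the LLC lung, against 49.6 in the control lung, and Mef2c had 55.8 and 68.9, against 90.4. Mef2d had 647 and 549, against 485, and Hopx, which is also made by type 1 alveolar cells, had 2735 and 2551, against 2415 in the control lung. Nkx2-5, Hand1, Hand2 and Smyd1 were below the floor in all 3 lungs.

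Counted together, 81 heart and skeletal muscle genes other than the members were on the array and 51 were above the floor in any lung. Of 50 measured in the B16 lung 9 were at least 2-fold lower (18%, beside 4.73% of all genes) and 1, Ucp3, at least 2-fold higher (beside 3.23%), with a median of −0.12. Of 51 in the LLC lung 7 were at least 2-fold lower (13.7%, beside 2.98%) and 1, again Ucp3, at least 2-fold higher (beside 3.95%), with a median of −0.09. Of the 51, 6 were at least 2-fold lower in both lungs, beside 1.32% of all genes: Ankrd1, Atp2a1, Atp2a2, Fabp3, Myl1 and Tnni1. Atp2a2 and Myl1, counted as lower in each lung, were above the floor in the control lung alone, so neither could have been higher. These lists were written with results on these arrays known, and the comparisons share the control array. The shares are therefore a description only.

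**Figure D3:**
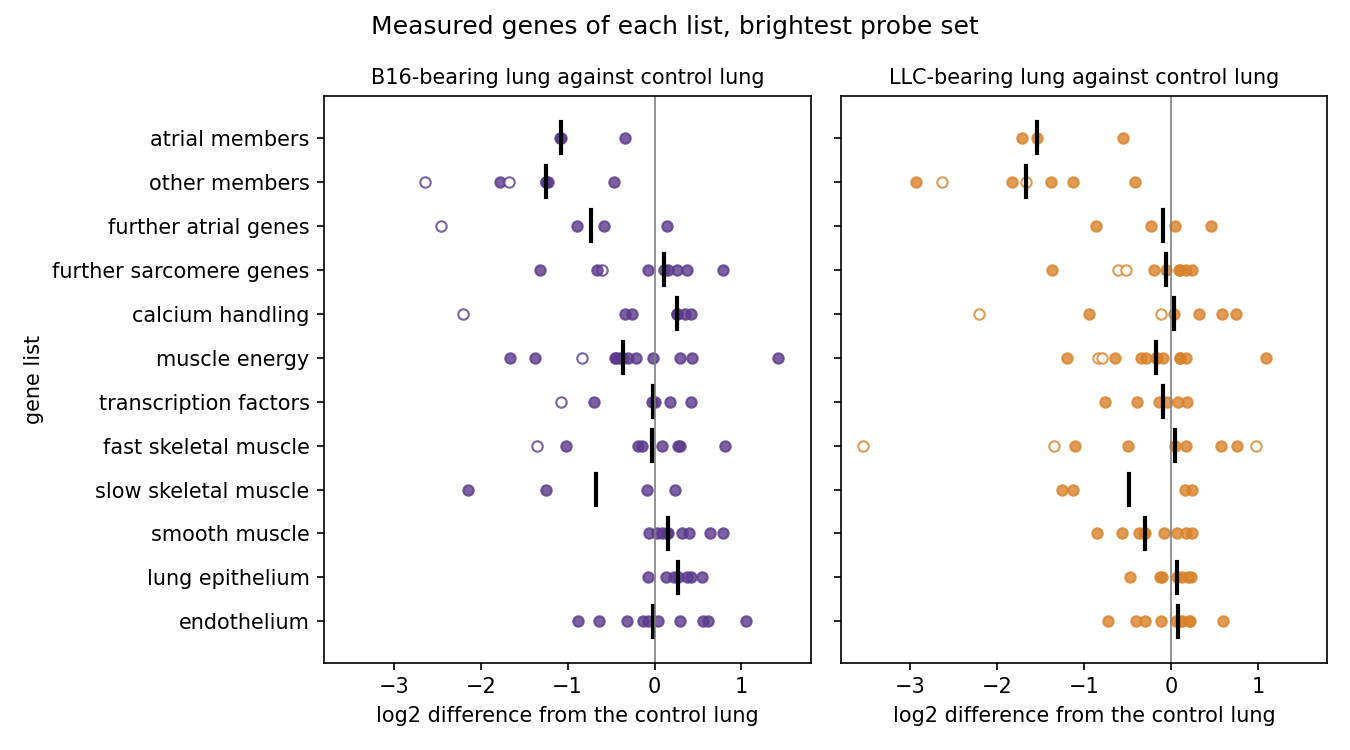
Log2 difference from the control lung of each measured gene (points; open for bounds) in the B16 lung (left) and the LLC lung (right), by gene list, with the list median as a black bar. The atrial and other members have medians of −1.07 and −1.25 on the left and −1.54 and −1.67 on the right, the last being a bound, while lung epithelium has 0.27 and 0.07.

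Markers of other cell types of the lung sample were read for comparison. Of 9 smooth muscle genes above the floor 1 was lower in the B16 lung and 6 in the LLC lung, beside 50.6% and 50.1% of all measured genes. Their medians were 0.15 and −0.30, and the summed signal was 4118, 3297 and 3643 in the B16, LLC and control lung. Cnn1, a calponin, had 287 and 207, against 185. Lung epithelium had medians of 0.27 and 0.07 and endothelium −0.01 and 0.09, with Foxj1, a factor of ciliated cells, at 170 and 122, against 116, Vwf, a clotting factor of endothelium, at 732 and 537, against 354, and Emcn, an endothelial mucin, at 111 and 154, against 204 in the control lung. Mesothelium had medians of 0.28 and −0.03, with Upk3b at 305 and 270.5, against 248, and Msln at 51.1 in the B16 lung and 23.9, just above the floor, in the control lung. The part of these cells in the differences of the heart muscle genes was not tested.

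In the remaining lists, adipocyte genes were the group that was low in 1 lung. Of 4 white adipocyte genes 3 were at least 2-fold lower in the B16 lung (beside 4.73% of all measured genes), with a median of −1.38. In the LLC lung 0 were so (beside 2.98%), with a median of 0.23. Car3, a carbonic anhydrase of fat and slow muscle, had 68.9 and 400, against 285, and Adipoq, which encodes adiponectin, 37.0 and 114, against 97.1 in the control lung. Ucp1, the defining marker of brown fat, was below the floor in all 3 lungs; of that list, Dio2 had 25.8 and 72.4 and was under the floor in the control lung, and Cox8b 82.9 and 94.8, against 84.1, with medians of 0.05 and 0.90 over these 2 genes. Erythroid genes had medians of 0.65 and 0.89 (3 of 3 higher in both, beside 49.4% and 49.9% of all measured genes higher in the B16 and LLC lung), with Slc4a1 at 107 and 120, against 52.3, and Alas2 at 897 and 1057, against 571. Squamous epithelium genes had medians of 0.45 and 0.35, with Krt6a at 120.4 and 161, against 26.7, and Krt4 at 128 and 112, against 83. A second Krt6a probe set differed little, with 78.6 and 77.9 in the B16 and LLC lung, against 74.7 in the control lung. Hepatocyte genes had medians of 0.20 (5 measured) and 2.72 (12 measured), with Alb at 1327 and Mup3 at 830 in the LLC lung and both below the floor in the B16 and control lung. A second Mup3 probe set had 708 in the LLC lung and 27.4, just above the floor, in the control lung.

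Genes with a like pattern were sought among those whose control signal was within 2-fold of that of Myh6 or Myl7, by the distance between their pairs of log2 differences from control over the 3 arrays. Among 943 candidates the nearest to Myl7 was Myl4, at a distance of 0.17. The next were Snx17, a sorting nexin, at 0.92, Hcn2, a pacemaker channel of heart and brain, at 0.96, Npm1, nucleophosmin, at 1.03, and Nrep at 1.07. Hcn2 had signals of 161 and 205 in the B16 and LLC lung, against 346 in the control lung, from a probe set with a suffix for relaxed design rules. Among 2345 candidates the nearest to Myh6 were Strn4, a striatin, at 0.36, Matn2, matrilin 2, at 0.37, Dhps, deoxyhypusine synthase, at 0.55, Fcer2a, the low-affinity IgE receptor, at 0.82, and Aanat at 0.83. Strn4 and Dhps were below the floor in the LLC lung and Fcer2a in both tumour-bearing lungs, so those distances rest on bounds.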

How the data were processed

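Total RNA (5 µg per sample, per the labels' protocols) was labelled by the standard Affymetrix procedure. The authors deposited linear intensity values for each probe set and array. Array software, summarisation and build: not given in the sources used here. About 20.2% to 21.0% of values are below 0, so background had been subtracted. The mean without the lowest and highest 2% was 100.0 on each array.

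From these values, computed with Python 3.11.15 and pandas 2.3.3, 66 control probe sets were left out and each array was multiplied by 1 factor (0.987, 1.01 and 1 for the B16, LLC and control lung). The factor centres the log2 ratios of the brighter probe sets to the control array on a median of 0. The floor was the 40th percentile of the scaled values (23.6); lower values were raised to it before log2, and a fold against such a value is a lower bound. Genes were represented by their brightest probe set and counted as measured where 1 of the 2 arrays compared, or both, exceeded the floor. Symbols are those of the platform annotation in GEO, with 1 symbol for 10833 probe sets. The robust SD is the scaled median absolute deviation of log2 differences over all probe sets or genes. It holds real differences as well as noise. With 1 array per group no test was run, and the number of arrays limits the precision.

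The members and the 17 other gene lists were chosen with earlier results of these data known. All members were named. Up to 4 genes of each heart or muscle list, and 2 of each other list, were chosen by the mean difference from control. Also named were Ucp1 and the heart and muscle list genes below the floor on all arrays. The 5 genes nearest to Myh6 and to Myl7 were named too. Acta2, and the genes listed as at least 2-fold lower in both lungs, were named after their values were seen. Promoter sequences are RefSeq's (GRCm38.p6), found for 10 of 10 genes by gene ID. The steps were tested on simulated arrays. Alternatives were 3 other floors, 2 other scalings, and 3 other choices of probe sets, of which 2 were added after seeing the data.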

Additional observations from a re-analysis of the deposited data

Results flagged for a closer look

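Among the genes named in the report, 7 had differences from control of opposite sign in the tumour-bearing lungs; with 1 array each, this contrast was not tested. Car3 had a log2 difference of −2.05 in the B16 lung and 0.49 in the LLC lung, and Adipoq −1.39 and 0.23. Acta2 had 0.14 in the B16 lung and −0.85 in the LLC lung. Bmp10, the only gene of the further atrial list among them, had −0.58 and 0.05. Msln had 1.10 in the B16 lung and was below the floor in the LLC lung, where the bound was −0.02. Tnnt1 had −0.0917 and 0.24, and Cox8b −0.0202 and 0.17, all smaller than the robust SDs of 0.45 in the B16 lung and 0.36 in the LLC lung over all measured genes. The signs for Tnnt1 are those of its brighter probe set, and the other was above the floor in the control lung alone.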

How the results depend on the processing

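Of 154 values of single genes against control under 8 alternatives, 23 moved by more than the robust SD of 0.42 on the log2 scale. A floor cannot turn the sign of a difference, so the direction under other floors is no check. The sizes depended on the floor, since a higher floor shortens each bound by construction. Of the 8 genes at least 2-fold lower, 5 were so in each tumour-bearing lung with the floor at the 60th percentile, and 3 with a floor of 100. The median of the other 7 genes was −0.53 in both lungs with a floor of 100, −0.995 in the LLC lung with the floor at the 60th percentile, and −1.67 in the B16 lung without probe sets of relaxed design, which leaves out Myh7 and Actc1. Between the tumour-bearing lungs, 1 gene was at least 2-fold different; this count was 2 with the floor at the 20th percentile and with the dimmest probe set above the floor, and 0 with the floor at the 60th percentile and at 100. With the mean of a gene's probe sets 6 genes were at least 2-fold lower in each lung. Mb (−0.56) and Myh7 (−0.89) then had only bounds under 2-fold. Their means lay below the floor in both tumour-bearing lungs, so larger differences are possible. The 2 other scalings left these counts as they were.

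No paired analysis was possible because each group has 1 array. With 1 control array, a reading particular to that sample cannot be told apart from the absence of a tumour. Signals of Mb and Tnnc1 in both tumour-bearing lungs lie below the floor, and those of Tnni3 in both and of Myh6 in the LLC lung lie near it, so their folds depend on it. The log2 difference of Mb was −0.08 in both lungs with the floor at the 60th percentile, that of Tnni3 −0.02 with a floor of 100, and that of Myh6 in the LLC lung −1.71 and −1.22 with these floors, against −2.94 as reported.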
